A study of Mus musculus with 11 samples.

Results

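MicroRNAs (miRNAs) are short RNAs that pair with messenger RNAs through their seed, bases 2 to 8, and repress them. A precursor hairpin yields mature miRNAs from its 5p arm, its 3p arm or both. The 8 miRNAs described here are both arms of miR-33, miR-378a, miR-802 and miR-335, taken by name from the 1281 mature names of the deposited table, whatever their values. All come from single hairpins, so each name has 1 row of counts.

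The libraries were made from liver of C57/B6 mice that all lack telomerase and have short telomeres, labelled G4, with no treatment. The 5 p53+/+ libraries, numbered 1 to 5, come from mice with intact p53, and the 6 p53-/- libraries, numbered 6, 7, 8, 10, 11 and 12, from mice without p53. The study looked for miRNAs that depend on p53. The labels give no age, and do not say whether libraries came from different animals. The tests therefore cover only the spread among these libraries, which may be technical. Telomerase-competent mice were not analysed here. Both groups carry the same G4 label, and the values used here hold no measure of telomere length. In whole tissue, fewer cells of a type and less RNA per cell cannot be told apart.

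These 4 hairpins are known for lipid and glucose control in liver. miR-33 lies inside the gene of the sterol regulator SREBP-2 and represses the cholesterol exporter ABCA1. miR-378a lies inside the gene of the coactivator PGC-1beta and acts on mitochondrial metabolism. miR-802 is reported to be higher in livers of obese mice and to act on insulin sensitivity, while miR-335 lies inside the imprinted gene Mest and is reported to be higher in fat and liver of obese mice.

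On GRCm38, with GENCODE M21 annotation, the Mir33 hairpin spans chromosome 15 from 82198122 to 82198190 on the plus strand, in an intron of Srebf2. Mir335 spans chromosome 6 from 30741299 to 30741396 on the plus strand, in an intron of Mest. Mir802 spans chromosome 16 from 93369720 to 93369816 on the plus strand and overlaps no other annotated gene. Its nearest protein-coding gene, Setd4, is 213641 bases away.

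RefSeq (GRCm38.p6) held mature sequences for 6 of the 8 arms. They are shown because arms of 1 hairpin carry different seeds and so pair with different messenger RNAs. Capitals mark the seed, 5′ to 3′.
miR-33-5p: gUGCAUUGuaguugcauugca
miR-33-3p: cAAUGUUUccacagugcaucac
miR-335-5p: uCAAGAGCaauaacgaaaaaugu
miR-335-3p: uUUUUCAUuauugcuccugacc
miR-802-5p: uCAGUAACaaagauucauccuu
miR-802-3p: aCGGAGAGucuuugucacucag

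No 2 of these 6 share a seed, and no other mature miRNA in the RefSeq table carries any of the 6 seeds, so these arms have no seed relatives there. The hairpins of Mir335 and Mir802 are shown in full because the balance of their arms is compared further on. Capitals mark the 2 arms.
Mir335: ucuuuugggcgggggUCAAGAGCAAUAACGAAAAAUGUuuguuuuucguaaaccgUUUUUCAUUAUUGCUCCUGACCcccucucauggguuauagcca
Mir802: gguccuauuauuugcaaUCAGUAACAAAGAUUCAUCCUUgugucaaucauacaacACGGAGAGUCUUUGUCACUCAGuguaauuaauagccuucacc

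Total counts per library ran from 1905609 to 6682492, and a miRNA with no read could still have had up to 3 counts, or 0.449 to 1.57 per 1000000 counts (CPM). Such limits, and the exact intervals given further on, hold counting error alone, since reads without molecular identifiers are not independent molecules. The hepatocyte miRNA miR-122-5p made up 52.4% to 64.0% of counts, and all 6 hepatocyte markers were detected. miR-34a-5p, a direct target of p53, was at 42.4 to 120.0 normalised CPM in p53+/+ and 3.90 to 12.4 in p53-/- libraries, with no overlap between the labelled genotypes. Normalised CPM are CPM after TMM scaling, which corrects for differences in composition between libraries. Libraries 1, 2 and 6 stood apart. On the first principal component libraries 1 and 2 lay at -10.5 and -13.0 and the others between -0.77 and 5.97. On the second, library 6 lay at -14.4 and the others between -0.65 and 4.34. Libraries 1 and 2, both p53+/+, also had the lowest total counts, 1965468 and 1905609, and the fewest detected miRNAs, 535 and 549. Library 11, of p53-/-, came next with 2202415 counts and 559 detected, and lay at 3.51 on the first component. The part of depth in these positions, and in results that turn on libraries 1 and 2, was not tested.

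The 8 miRNAs lay far apart in level. Averaged over the 11 libraries, miR-378a-3p was the highest at 13729 ± 3952 normalised CPM (SD, n = 11), rank 13 of the 811 detected miRNAs. miR-378a-5p followed at 193.1 ± 61.4 (rank 104), then miR-335-3p at 22.5 ± 7.62 (rank 196), miR-802-5p at 6.45 ± 6.74 (rank 282), miR-335-5p at 2.65 ± 1.66 (rank 357) and miR-802-3p at 1.35 ± 0.768 (rank 413). The arms of miR-33 came last, with miR-33-3p at 0.377 ± 0.221 (rank 524) and miR-33-5p at 0.366 ± 0.441 (rank 529). The top 3 were separated from one another in all 11 libraries. From miR-335-3p downwards the range of each miRNA overlapped that of the next, although the higher one led in 10, 9, 9 and 9 of 11 libraries. miR-33-3p and miR-33-5p did not differ beyond their spread, with the 3p arm higher in 6 of 11 libraries.

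**Figure D1:**
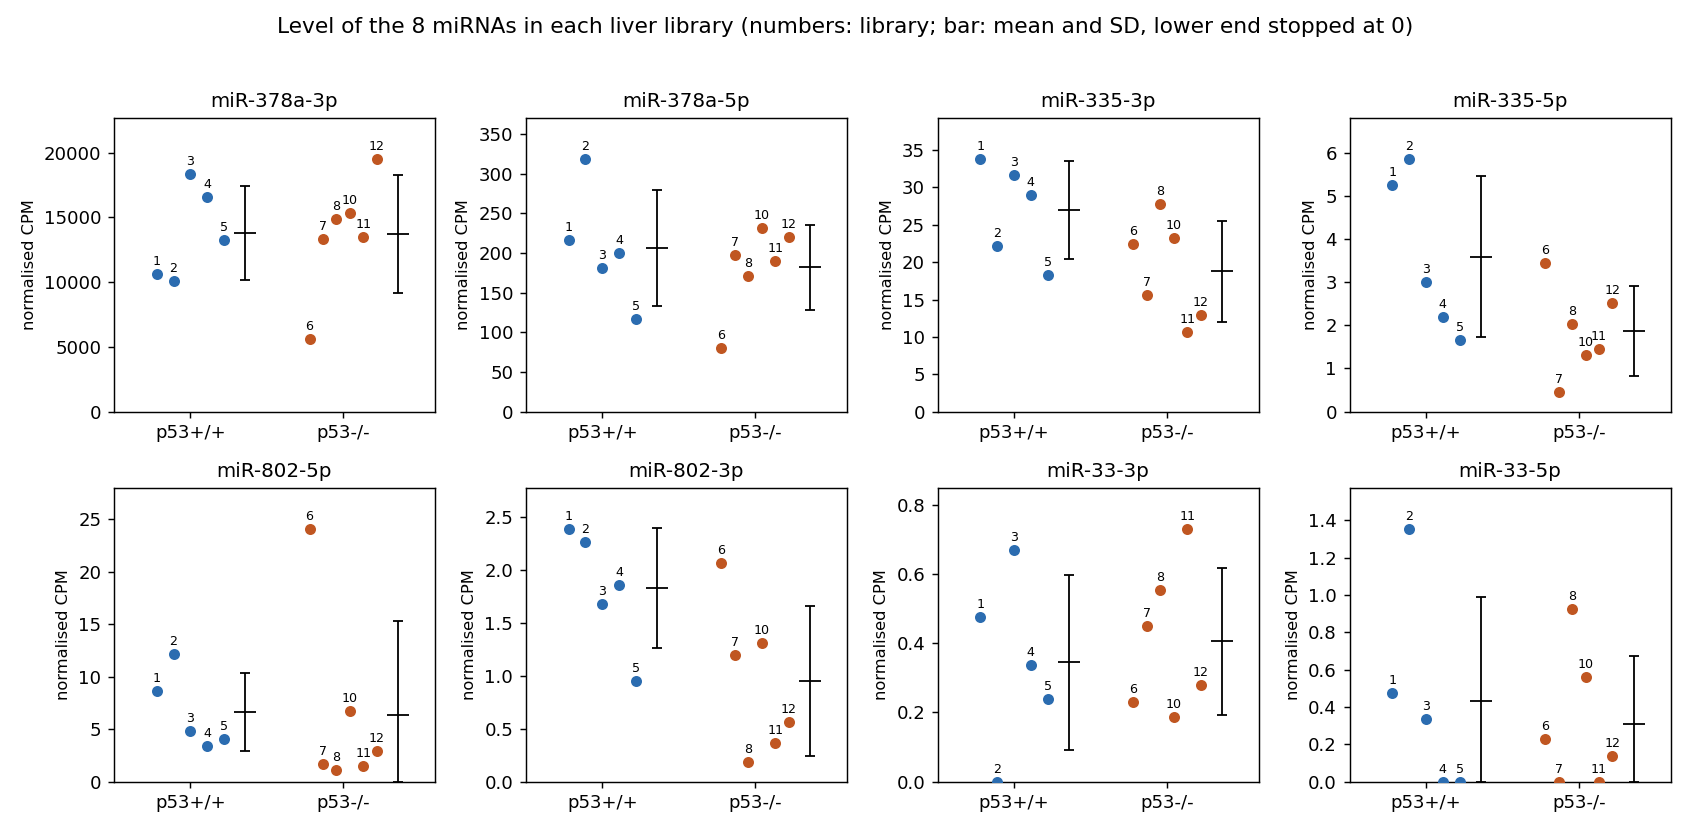
Normalised CPM of each of the 8 miRNAs (y axis, linear, from 0, scaled per panel) in the 5 p53+/+ and 6 p53-/- libraries. Points are libraries with their numbers, and bars are the mean and SD of each group. The groups overlap in every panel, and library 6 is the lowest for both miR-378a arms and the highest for miR-802-5p.

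The main comparison asked whether loss of p53 goes with another level of these miRNAs in liver. None of the 5 that passed the filter on low counts (both arms of miR-378a, both of miR-335, and miR-802-5p) was called in edgeR's quasi-likelihood test. Over all 388 miRNAs tested, 1 was called, miR-34a-5p, or 0.258% of them. None of the 5 had an unadjusted p under 0.05, against 67 of the 388 (17.3%). DESeq2 called 17 of the 388 (4.38%) and none of the 5, though it gave no adjusted p for miR-335-5p and miR-802-5p. The ranges of the 2 genotypes overlapped for each of the 8 miRNAs, and did not overlap for 2.32% of those tested. All 5 fold changes were below 0, with a median of -0.18, where 51% of all tested miRNAs were below 0 with a median of -0.01. Those of miR-378a-3p and miR-802-5p were both about -0.01. These, and that of miR-378a-5p, changed sign when some libraries were left out. Since 4 of the 5 come from 2 hairpins, they do not count as 5 separate signs.

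mmu-miR-378a-3p, the main arm of its hairpin, stood at 10604, 10114, 18328, 16574 and 13276 normalised CPM in p53+/+ libraries 1 to 5. In the p53-/- libraries it ran from 5588 through a median of 14158 to 19527. Libraries 1, 2 and 6 were the low ones, and 5 of the 6 p53-/- libraries lay above the p53+/+ median. Mean normalised CPM was 13779 ± 3615 in p53+/+ (SD, n = 5) and 13688 ± 4559 in p53-/- libraries (SD, n = 6). The log2 fold change, p53-/- minus p53+/+, was -0.01 (SE 0.26, adjusted p = 0.988 in edgeR). Its 95% interval, -0.58 to 0.56, corresponds to a p53-/- level between 0.670 and 1.47 times the p53+/+ level. With counts of 22238 to 140006 per library, counting error was a small part of the spread: 0.504% of the level in p53+/+ libraries, against an observed coefficient of variation of 26.2%.

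mmu-miR-378a-5p, the minor arm, was at 216.5, 319.1, 180.7, 199.9 and 117.2 normalised CPM in p53+/+ libraries 1 to 5. It ran from 80.7 through a median of 193.6 to 231.4 in the p53-/- libraries, so the p53-/- range lay mostly inside that of p53+/+. Mean normalised CPM was 206.7 ± 73.2 in p53+/+ (SD, n = 5) and 181.9 ± 54.0 in p53-/- libraries (SD, n = 6). In edgeR the log2 fold change came to -0.18, with an SE of 0.28 and a 95% interval from -0.78 to 0.42 (adjusted p = 0.778). With 1 library left out it was below 0 in 11 of 11 fits, from -0.38 without library 5 to -0.016 without library 2. It was 0.17 without libraries 1 and 2 together and 0.31 when library 6 was left out as well. With only p53-/- libraries 10, 11 and 12, whose HA number in the descriptions is above 500, it was 0.028. That subset also leaves out library 6. miR-378a-5p was called in none of these fits.

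Mir378a spans chromosome 18 from 61397835 to 61397900 on the minus strand, in an intron of Ppargc1b, and a second annotated miRNA gene, Gm25301, overlaps it on the other strand. The miR-378 rows outside the set, miR-378b, miR-378c and miR-378d, have their own hairpins but similar names. The deposited counts may divide shared reads between identical or near-identical miRNAs or count them for each. For example, let-7a-1-3p and let-7c-2-3p had the same log2 fold change, -0.27, and the same mean log2 CPM, 4.61. That pair does not show how reads of the miR-378 rows, which differ in level, were counted. How far the miR-378 rows share reads was not tested. In library 6 all 5 miR-378 rows were at their lowest of the 11 libraries. There miR-378a-3p was at 5588 normalised CPM against a median of 14837 in the other p53-/- libraries, miR-378a-5p at 80.7 against 197.7, miR-378b at 4.13 against 12.9, miR-378c at 78.4 against 250.8 and miR-378d at 823 against 1525. For comparison, library 6 was the lowest library for 65 of the 388 tested miRNAs (16.8%). Between genotypes miR-378b (log2 fold change -0.28), miR-378c (-0.29) and miR-378d (-0.02) were not called in edgeR either (adjusted p = 0.684, 0.618 and 0.986).

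mmu-miR-335-3p stood at 33.9, 22.1, 31.7, 28.9 and 18.3 normalised CPM in p53+/+ libraries 1 to 5, and from 10.6 through a median of 19.0 to 27.7 in p53-/- libraries. Each of the 6 p53-/- libraries was lower than the p53+/+ median, but 3 of them were higher than p53+/+ library 5. Mean normalised CPM was 27.0 ± 6.56 in p53+/+ (SD, n = 5) and 18.8 ± 6.71 in p53-/- libraries (SD, n = 6). In edgeR the log2 fold change came to -0.52, with an SE of 0.27 and a 95% interval from -1.10 to 0.06 (adjusted p = 0.340). The interval covers p53-/- levels from 0.466 to 1.04 times the p53+/+ level. The value stayed below 0 with each library left out, from -0.70 without library 8 to -0.38 without library 11.

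mmu-miR-335-5p, the rarer arm, had 11, 13, 18, 13 and 7 reads in p53+/+ libraries 1 to 5 and 15, 3, 11, 7, 4 and 18 in p53-/- libraries 6, 7, 8, 10, 11 and 12. These correspond to 5.25, 5.87, 3.02, 2.19 and 1.66 normalised CPM, and to between 0.448 and 3.44 around a median of 1.75. Libraries 1 and 2 were the highest, and the other 9 overlapped. Mean normalised CPM was 3.60 ± 1.87 in p53+/+ (SD, n = 5) and 1.87 ± 1.04 in p53-/- libraries (SD, n = 6). In edgeR the log2 fold change came to -0.86, with an SE of 0.48 and a 95% interval from -1.88 to 0.17 (adjusted p = 0.393), and -0.27 without libraries 1 and 2. Counting error alone came to 29.8% of the level in p53+/+ and 39.6% in p53-/- libraries, beside observed coefficients of variation of 51.9% and 55.6%.

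mmu-miR-802-5p was the most uneven of the 5 tested. It had 18, 27, 29, 20 and 17 reads in p53+/+ libraries 1 to 5, or 8.58, 12.2, 4.86, 3.36 and 4.04 normalised CPM. In p53-/- libraries 6, 7, 8, 10, 11 and 12 it had 105, 11, 6, 36, 4 and 21 reads, or 24.1, 1.64, 1.11, 6.75, 1.46 and 2.93 normalised CPM. Library 6 was high, libraries 1, 2 and 10 came next, and the other p53-/- libraries were lower than every p53+/+ library. Between the lowest and the highest p53-/- library the level differed 21.7-fold, against 3.62-fold in p53+/+. Its biological coefficient of variation in the fit, 79.5%, was the 5th highest of the 388 tested miRNAs. In p53-/- libraries the observed coefficient of variation of normalised CPM was 141%, beside 31.4% from counting error.

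The genotype comparison of miR-802-5p turned on library 6. Mean normalised CPM was 6.61 ± 3.71 in p53+/+ (SD, n = 5) and 6.33 ± 8.94 in p53-/- libraries (SD, n = 6), while the medians were 4.86 and 2.29. In edgeR the log2 fold change came to -0.01, with an SE of 0.74 and a 95% interval from -1.61 to 1.59 (adjusted p = 0.996), so that levels from 0.327 to 3.01 times that of p53+/+ were inside the interval. Without library 6 it was -1.15 (adjusted p = 0.255). Without library 1, 2, 7, 8, 11 or 12 it lay above 0, at most 0.37, and without libraries 1 and 2 together it was 0.72. The difference of mean log2 CPM, which weighs library 6 less, was -0.70 (exact permutation p = 0.374, adjusted p = 0.702 over the 388).

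mmu-miR-802-3p had 5, 5, 10, 11 and 4 reads in p53+/+ and 9, 8, 1, 7, 1 and 4 in p53-/- libraries, too few to pass the filter. Its levels were 1.82 ± 0.567 normalised CPM (SD, n = 5) and 0.946 ± 0.709 (SD, n = 6). Fitted with no filter, the log2 fold change was -0.86 (SE 0.56, adjusted p = 0.555 in edgeR). In library 6 the 3p arm was at 2.06 normalised CPM, below libraries 1 and 2, whereas the 5p arm was the highest of all 11 libraries.

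**Figure D2:**
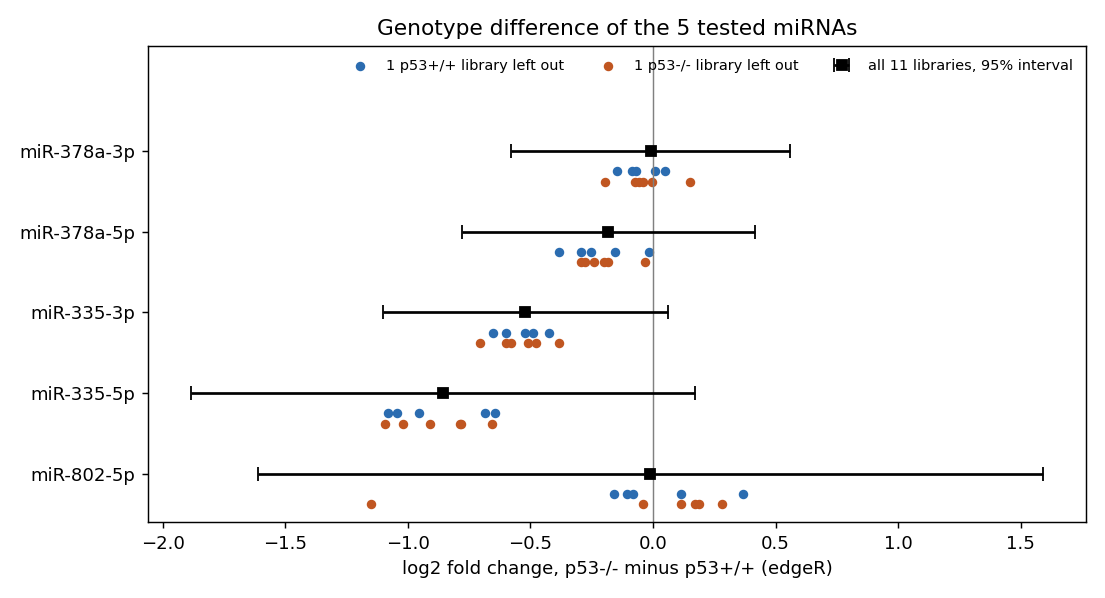
Log2 fold change (x axis, p53-/- minus p53+/+) of the 5 tested miRNAs in edgeR. Squares with bars are the estimates from all 11 libraries with 95% intervals, and dots the estimates with 1 library left out. Every interval spans 0, and the dot at -1.15 for miR-802-5p is the fit without library 6.

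miR-33 was at the limit of detection in both genotypes. mmu-miR-33-5p, the arm reported to repress ABCA1, had 1, 3, 2, 0 and 0 reads in p53+/+ libraries 1 to 5 and 1, 0, 5, 3, 0 and 1 in p53-/- libraries. mmu-miR-33-3p had 1, 0, 4, 2 and 1 reads, and 1, 3, 3, 1, 2 and 2. In all there were 16 reads of the 5p arm in 7 libraries and 20 of the 3p arm in 10 libraries. Pooled over libraries, miR-33-5p was at 0.292 CPM in p53+/+ (95% exact Poisson interval 0.107 to 0.635) and 0.305 CPM in p53-/- (0.146 to 0.562). miR-33-3p was at 0.389 CPM (0.168 to 0.766) and 0.366 CPM (0.189 to 0.640). Apart from miR-33-5p in library 8 and miR-33-3p in library 3, every library had 3 reads or fewer, so no difference was detectable at this depth. Fitted with no filter, the log2 fold changes were -0.11 (SE 1.11) and 0.02 (SE 0.87).

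The balance of the arms was compared next, since a ratio within a library does not depend on how libraries are scaled. Pooled over libraries, the 3p arm of miR-378a had 761100 reads against 9856 of the 5p arm, 77.2 times as many. The 3p arm of miR-335 had 1156 reads against 120, a ratio of 9.63. For miR-802 the 5p arm led, with 294 reads against 65, a ratio of 4.52. For miR-33 the arms were near equal, with 16 and 20 reads, a 5p share of 44.4% (95% exact interval 27.9 to 61.9%).

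The 5p share of miR-378a reads was 2.00%, 3.06%, 0.976%, 1.19% and 0.875% in p53+/+ libraries 1 to 5, and between 1.12% and 1.49% in the p53-/- libraries. Libraries 1 and 2 were the highest of the 11, and libraries 3 and 5 the lowest. The p53+/+ shares averaged 1.62 ± 0.917% (SD, n = 5) and the p53-/- shares 1.34 ± 0.164% (SD, n = 6). On the log2 scale of 5p over 3p, with 2 counts added to each arm, the difference was -0.12 (two-sided exact permutation p = 0.727, adjusted p = 0.823). It was 0.40 without libraries 1 and 2 and 0.15 without library 2 alone, and in neither case did it pass. Without libraries 1 and 2 the smallest p the permutation test can give is 0.0119 before adjustment. A pass after adjustment was thus hardly possible there. Exact intervals of single libraries were narrow, for example 2.84 to 3.29% in library 2 and 0.919 to 1.04% in library 3, so these shares differed by more than counting error within the p53+/+ group.

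The 5p share of miR-335 reads was 13.4%, 21.0%, 8.70%, 7.03% and 8.33% in p53+/+ libraries, and ran from 2.80% to 16.2% in p53-/- libraries. The groups overlapped, with averages of 11.7 ± 5.72% (SD, n = 5) and 9.43 ± 5.20% (SD, n = 6). The log2 ratio differed by -0.32 (exact permutation p = 0.537, adjusted p = 0.709). With 1 library left out it stayed below 0, from -0.50 without library 12 to -0.052 without library 2, and without libraries 1 and 2 together it was 0.15. Adjusted values here run over the 103 hairpins whose arms both passed the filter. None of the 103 passed (0%), in the permutation test or in limma, and 15 (14.6%) had an unadjusted permutation p under 0.05. The smallest p the permutation test can give is 0.00216 before adjustment, which limits what could pass.

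For miR-802 the 5p share averaged 76.5 ± 7.63% (SD, n = 5) in p53+/+ and 80.6 ± 11.8% (SD, n = 6) in p53-/- libraries. It was highest in library 6, where 105 of the reads were 5p and 9 were 3p, 92.1% (95% exact interval 85.5 to 96.3%). It was lowest in library 7, with 11 and 8 reads, 57.9% (33.5 to 79.7%). The intervals of the other libraries overlapped both of these, except that of library 4, 45.4 to 80.8%, which did not reach that of library 6.

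**Figure D3:**
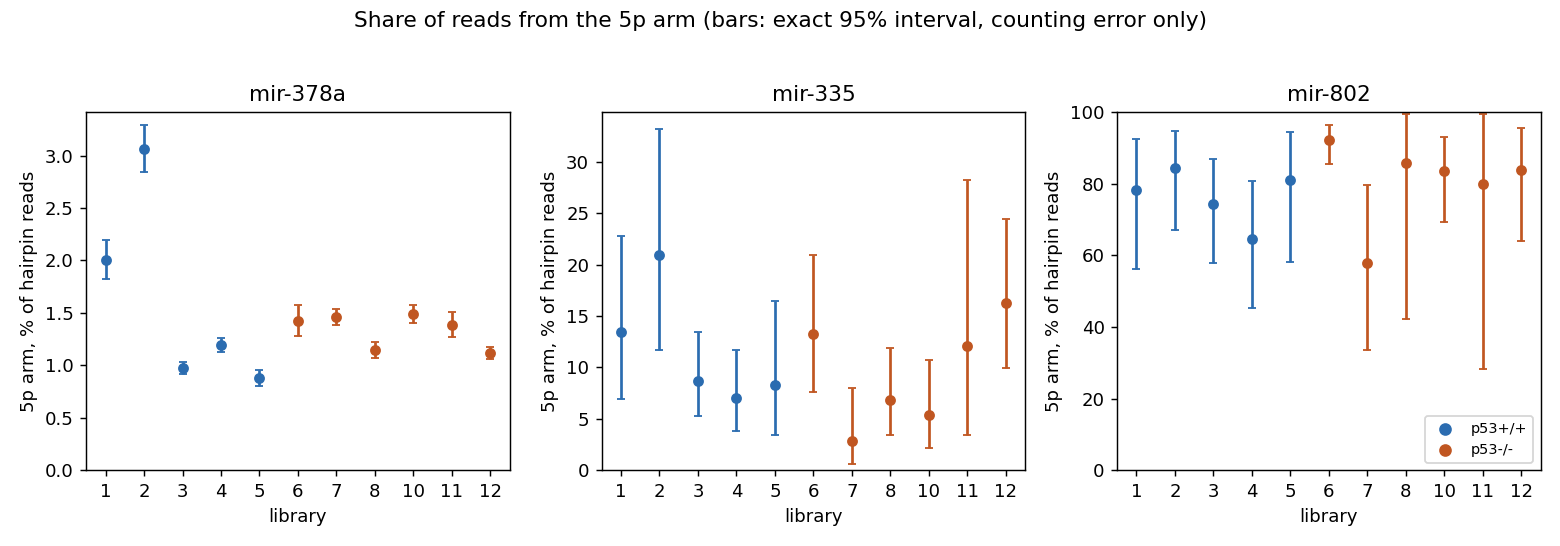
Share of hairpin reads from the 5p arm (y axis, percent, scaled per panel) in each library (x axis) for miR-378a, miR-335 and miR-802. Bars are exact 95% intervals for counting error. Libraries 1 and 2 have the highest miR-378a shares, at 2.00% and 3.06%, and library 6 the highest miR-802 share, at 92.1%.

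Arms of 1 hairpin come from the same precursor, so their levels were also compared across libraries. For miR-378a Pearson's r of log2 normalised CPM was 0.50 over 11 libraries (permutation p = 0.123, adjusted p = 0.294 over the 103 hairpins) and Spearman's rho 0.20 (permutation p = 0.557, adjusted p = 0.776). Without the 2 libraries whose 5p level lay farthest from the median r was -0.53. With each genotype centred on its mean over all 11 libraries, r was 0.50. It was then -0.15 without library 6 and 0.45 without libraries 1, 2 and 6, so the sign depended on which libraries were left out. For miR-335 r was 0.49 (permutation p = 0.127, adjusted p = 0.298) and rho 0.43 (permutation p = 0.192, adjusted p = 0.460), and r was 0.52 without the 2 farthest libraries. With each genotype centred on its mean, r for miR-335 fell to 0.27 over 11 libraries (permutation p = 0.409, adjusted p = 0.649). It was then 0.19 without library 6. Neither hairpin passed, where 9 of the 103 did (8.74%). The median r of the 103 was 0.39.

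Across libraries, miR-378a-3p and miR-802-5p lay on opposite sides. After each genotype was centred on its mean, r was -0.75 and rho -0.38 over 11 libraries, the 6th lowest of the 387 values of r between miR-378a-3p and the other tested miRNAs. With the same centring over 11 libraries, r was -0.39 without library 6 and 0.35 without libraries 1, 2 and 6. The relation thus rested on the libraries that stood apart. The pair was picked after its values were seen and the values of all miRNAs in a library share its scaling, so r is given as a description with no test.

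**Figure D4:**
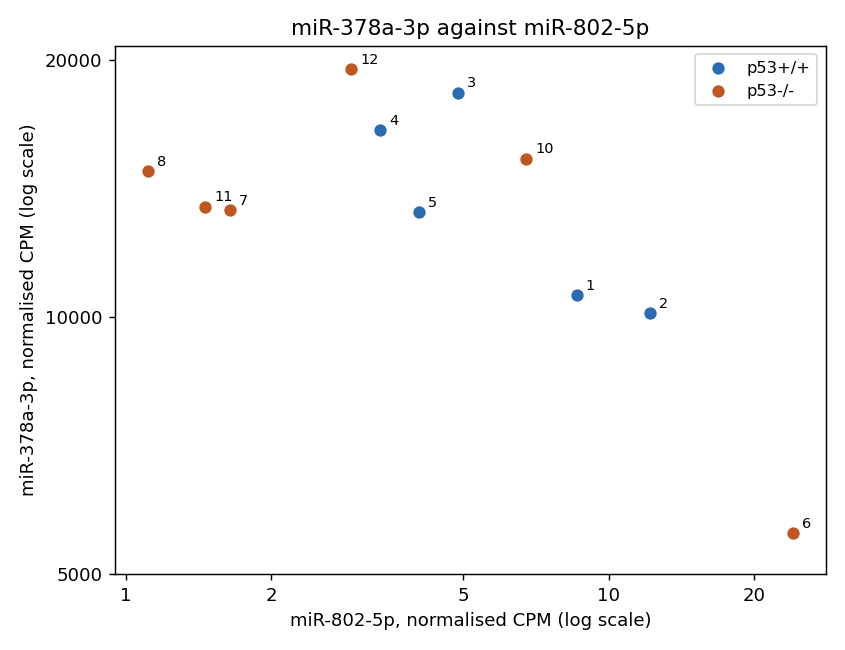
Normalised CPM of miR-378a-3p (y axis, log scale) against miR-802-5p (x axis, log scale), 1 point per library with its number. Library 6 lies alone at 24.1 and 5588 normalised CPM, libraries 1 and 2 lie between it and the rest, and the other 8 show no downward trend. Among these 8, r was 0.35 for log2 values centred on genotype means over all 11 libraries, which are not the values plotted.

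The tested miRNAs most like each main arm were ranked by r after centring, as a description. Centring used genotype means over all 11 libraries, also where libraries were then left out. For miR-378a-3p they were miR-1981-3p (0.93), miR-1948-3p (0.92) and miR-151-3p (0.90), and without libraries 1, 2 and 6 these values were 0.45, 0.31 and 0.66. For miR-802-5p they were miR-181b-5p (0.88), miR-1247-5p (0.79) and miR-181a-5p (0.79), and without those libraries 0.41, 0.70 and 0.13. For miR-335-3p they were miR-222-5p (0.80), miR-322-3p (0.80) and miR-152-3p (0.78), and without those libraries 0.82, 0.87 and 0.88. The values for miR-335-3p were as high without the libraries that stood apart, while those for the other main arms were lower. miR-33 was too low to rank.

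Markers of other cell types are given beside these values. In library 6 the 6 hepatocyte markers summed to 845711 normalised CPM, the highest of the 11 libraries, which ran from 488322 upwards. Of that sum miR-122-5p alone was 769451, so it mostly restates miR-122-5p. The 4 pancreas markers summed to 27.5 in library 6 and between 6.75 and 20.5 in the other p53-/- libraries. In p53+/+ libraries they summed to between 2.86 and 410.2, the highest in library 5, where miR-802-5p was at 4.04. The 3 striated muscle markers, of interest because miR-378a is abundant in muscle, summed to 16.0 in library 6, 4.29 to 45.6 over p53+/+ and 4.25 to 40.2 over p53-/- libraries. Between genotypes, both pancreas markers that were tested lay below 0 (median log2 fold change -3.35), as did both muscle markers (-0.78), both endothelial markers (-0.27) and all 5 biliary and epithelial markers (-0.59). Of 5 stellate and mesenchymal markers 4 lay below 0 (-0.15). Of 6 hepatocyte, 4 erythroid and 5 leukocyte markers 2 each lay below 0, with medians of 0.13, 0.08 and 0.18. The leukocyte arms of miR-142, listed as miR-142a and so not matched, are outside that tally. They lay above 0, at 0.18 (5p) and 0.03 (3p). No marker was called in edgeR. No marker in the table was at 0 in all libraries, and the part of these cell types in the values above was not tested.

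Other miRNAs of lipid and glucose metabolism showed 1 call, miR-34a-5p, which was also the 1 call among all 388 tested (0.258%). Of 29 listed, 28 were tested, with 17 below 0 and 11 above 0, where 51% of all tested lay below 0. Their median log2 fold change was -0.04, against -0.01 over all 388. miR-34a-5p was at -3.33 (adjusted p = 7.07e-05 in edgeR), and 0 passed above 0. Among the 15 lipid miRNAs 6 were below 0, with a median of 0.08. Among the 14 of glucose and insulin signalling 12 were below 0, with a median of -0.21, and miR-223-3p was on both lists. The 14 include relatives, such as miR-29a-3p, miR-29b-3p and miR-29c-3p, so they do not count as 14 separate signs. After miR-34a-5p, the smallest p-values below 0 were those of miR-30c-5p (-0.51), miR-375-3p (-2.22) and miR-26b-5p (-0.61), each with an adjusted p of 0.174 in edgeR. miR-375-3p is a miRNA of pancreatic islets. Above 0 they were those of miR-181a-5p (0.43), miR-96-5p (0.48), miR-122-3p (0.19) and miR-128-3p (0.53), with adjusted p-values from 0.425 to 0.516 in edgeR.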

How the data were processed

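Small RNA was sequenced from 11 liver libraries made from 50 mg of tissue each, all with 1 date and lane 4 in their descriptions. Per the file headers, the authors deposited tables of counts for each mature miRNA with its hairpin, and normalized values that are CPM; the CPM equal, to rounding, the counts scaled by the total over all 1418 entries. The submitters' processing notes name GRCm38 and limma. The sources used here name no aligner or counter. Here each mature name was counted once, with its highest count over hairpins. Genotypes were compared with edgeR 4.0.16 (R 4.3.3): TMM, filterByExpr, quasi-likelihood F-test and Benjamini-Hochberg adjustment over 388 miRNAs, with a threshold of 0.05. Log2 CPM used a prior count of 2. Arm ratios used an exact permutation test over 462 splits, and arm correlations 100000 resamples. Alternatives used DESeq2 1.42.0, limma 3.58.1, other scalings and left-out libraries. Methods were tested on simulated data. The members, the metabolic and marker lists and the rule for the other miRNAs named (smallest p in each direction on the metabolic list, highest r for each main arm) were chosen with earlier results of these data known. Leaving out libraries 1, 2 and 6 together was chosen after seeing the data.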

Additional observations from a re-analysis of the deposited data

Results flagged for a closer look

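Of 24 sets of values examined for a library far from the others of its genotype (the 8 miRNAs and the 4 arm ratios in each genotype), 1 stood out, where chance gives about 1 in 20. miR-802-5p in p53-/- library 6 was at 24.1 normalised CPM. Its gap to the next p53-/- library was 0.755 of the whole range. The same library stood equally far above the other p53-/- libraries for 13 of the 388 tested miRNAs (3.35%).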

How the results depend on the processing

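The count of miRNAs called between genotypes was 1 in 19 of 21 alternatives, with each library left out in turn included. DESeq2 called 17, and the exact permutation test of log2 CPM called 0 after adjustment and 60 at an unadjusted p under 0.05. The smallest p this permutation test can give is 0.00216. miR-34a-5p had that p and still an adjusted permutation p of 0.140, so the 0 does not speak against its call in edgeR. None of the 5 tested members was called under any alternative. Log2 fold changes of miR-335-3p (-0.82 to -0.38) and miR-335-5p (-1.09 to -0.27) stayed below 0 throughout. Those of the others changed sign. With 1 library left out, miR-378a-3p ran from -0.19 to 0.15 and miR-802-5p from -1.15 to 0.37. With only the p53-/- libraries of HA numbers above 500, which leave out library 6, miR-378a-3p was at 0.20 and miR-378a-5p at 0.028. Without libraries 1 and 2, miR-378a-5p was at 0.17 and miR-802-5p at 0.72, and without library 6 as well miR-378a-5p was at 0.31. With no filter miR-802-5p was at 0.034. The log2 arm ratio of miR-378a differed by -0.31 to 0.15 with 1 library left out. Without libraries 1 and 2 it differed by 0.40, and that of miR-335 by 0.15. The count of hairpins whose arms correlate was 9, and 0 without the 2 farthest libraries (18 at an unadjusted permutation p under 0.05), when r for miR-378a was -0.53. That alternative has fewer libraries per test. The cause of the other changes was not tested. No paired analysis was possible because the genotypes share no replicate numbers. Depth limits miR-33 (16 and 20 reads), miR-802-3p (65), miR-335-5p (120) and miR-802-5p (294) most.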

Other observations

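The other miR-378 rows did not keep a fixed proportion to miR-378a-3p. The count of miR-378c was 1.32% to 3.27% of that of miR-378a-3p over the 11 libraries, with a median of 1.71%, and the highest share in p53+/+ library 1. The count of miR-378d was 7.33% to 15.7% of it, with a median of 10.9%, and also highest in library 1. The count of miR-378b was 0.0738% in library 6 and 0.198% in library 1, the lowest and the highest. These shares rest on 18 and 44 reads of miR-378b, so counting error weighs more there.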
